A study of Homo sapiens with 6 samples.

Results

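The genes described here are 48 genes of the lysosome, out of 57905 in the deposited gene counts. They were chosen by name: 9 proteases, 9 glycosidases, 3 sulfatases, 5 lipid and acyl hydrolases with their activator, 2 cholesterol carriers, 4 membrane proteins and 16 genes of the vacuolar ATPase (V-ATPase), of which 6 encode V0 subunits, 8 encode V1 subunits and 2 encode accessory proteins. HGSNAT was left out by the rule. All 48 passed the filter on low counts and were tested, so none was lost to it.

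The lysosome is the acidic compartment in which proteins, glycans, lipids and nucleic acids are broken down. Its soluble enzymes are made in the endoplasmic reticulum (ER), tagged with mannose 6-phosphate in the Golgi and sorted by receptors, and the V-ATPase pumps the protons that keep the lumen acidic. IRE1 is an ER stress sensor whose RNase cuts XBP1 mRNA and also degrades other mRNAs at the ER membrane, a process called regulated IRE1-dependent decay (RIDD). Like all proteins of the secretory route, lysosomal hydrolases are translated at the ER, where IRE1 resides.

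H929 (NCI-H929) is a human multiple myeloma cell line, a malignant plasma cell that secretes immunoglobulin. Total RNA of this line (5 µg) was kept at 37 °C for 1 h with 2 µg of recombinant human IRE1, residues 467 to 977 (the IRE1-treated group, 3 libraries), or in the same buffer without it (the control group, 3 libraries). The reaction was stopped by 5 min at 95 °C, and stranded libraries were made from mRNA bound to poly-T beads. The comparison asks which mRNAs the enzyme cuts in RNA free of cells, so no transcription, translation or regrowth took place between the groups, and a cut mRNA can lose its 5′ piece at the bead step while its 3′ piece is still counted.

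Counts on genes ran from 19615715 to 25678499 per library. IRE1-treated replicate 1 stood furthest from the controls, followed by replicates 2 and 3 in order. HTSeq summary lines took 23.2% of the counts of replicate 1, against 21.4 to 22.1% elsewhere, and its TMM factor (0.947) was the lowest. At equal library totals its chi-square per gene was 7.13 against IRE1-treated replicate 2 and 11.1 against replicate 3. Replicates 2 and 3 differed from each other by 3.40. From the controls, IRE1-treated replicates 1, 2 and 3 differed by 22.8 to 29.3, 12.2 to 16.6 and 7.99 to 10.1. The controls differed among themselves by 2.20 to 3.05. Results that depend on replicate 1 are given without it below. All 9 plasma cell markers were detected, from 408 counts of CD38 to 102846 counts of JCHAIN in a library. The defining B cell, monocyte and fibroblast markers MS4A1, CD22, CD14 and COL1A2 had 0 to 3 counts. Of the T cell markers, CD3D, CD3G and CD8A had 0 to 3 counts, whereas CD3E had 890 to 1063. BLOC1S1, a known IRE1 substrate that encodes a subunit of complexes that move lysosomes, checked the enzyme. It had 607, 584 and 651 normalized counts in control replicates 1, 2 and 3 and only 276, 230.4 and 212 after treatment, in the same order. The groups did not overlap, for a log2 fold change of -1.37 (standard error, SE, 0.095, adjusted p = 1.25e-06 by edgeR's quasi-likelihood test, Benjamini-Hochberg). XBP1, counted over the whole gene, gave -0.09 (SE 0.0436, adjusted p = 0.143, edgeR). It passed in 4 of 15 alternatives, at -0.17 with library size alone and -0.21 with the trend of fold change with transcript length and GC content removed (adjusted p from 0.000947 to 0.385 over all alternatives).

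Levels in the control RNA were compared between genes in TPM, here counts per kilobase of exon scaled so that all genes of a library sum to 1000000. The 48 lysosomal genes together held 4046 ± 41.2 TPM (SD, n = 3) in the controls. Single genes ranged from 756 to 0.206, with a median of 40.6 TPM. The highest was ATP6V1F (ENSG00000128524), the F subunit of the rotor stalk of the V-ATPase, with 721, 774 and 773 TPM in control replicates 1, 2 and 3 (mean 756 ± 30.4). PSAP, the precursor of the saposins that help sphingolipid hydrolases reach their substrates, came next at 470, 466 and 471 (mean 469 ± 2.68). ATP6V0E1, a small membrane subunit of the V-ATPase, had 259, 261 and 261 (mean 260.2 ± 1.28). With all exons as the length, these top levels were apart from each other in every control library.

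Below them, ATP6AP1 (183 ± 2.25), a V-ATPase assembly protein, CD63 (182 ± 9.99), a tetraspanin of late endosomes and lysosomes, and CTSB (181 ± 1.68), a cysteine protease, overlapped in the order of levels. CTSA, the protective protein that holds the galactosidase and neuraminidase complex together, stood apart from both neighbours at 158 ± 1.05. CTSD (152 ± 3.92), the main aspartic protease, GAA (145 ± 3.02), which digests glycogen, and ATP6V0B (141 ± 5.27), a proteolipid of the proton-conducting ring, again overlapped with the next in order.

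At the low end, CTSZ, a carboxypeptidase also called cathepsin X, had 0.185, 0.196 and 0.238 TPM in the 3 controls. ATP6V0A2, the form of the large membrane subunit found mostly on the Golgi, had 3.95, 3.91 and 4.06. CTSH, an aminopeptidase, had 4.45, 4.56 and 4.09. CTSZ was therefore near absent from this RNA while other cathepsins were among the highest lysosomal transcripts. ATP6V0A2 is an alternative form to ATP6V0A1, which had 44.1 TPM. From ATP6V1F to ATP6V0A2, the levels of the 16 V-ATPase genes spread 190-fold. Taking the longest coding transcript as the length, in place of all exons, brought this spread to 77.1-fold. It kept ATP6V1F and PSAP at the top but moved ATP6V0E1 from rank 3 to rank 8 (185 TPM) and put ATP6AP1 at rank 3 (316 TPM), ahead of CTSA (291 TPM). At the low end CTSH rose to 17.3 TPM, rank 40, and left the lowest 3, which were then ARSB, ATP6V0A2 and CTSZ. The 2 lengths shared 9 of the 10 highest genes and gave the order of the 48 levels a Spearman correlation of 0.929, across genes.

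**Figure D1:**
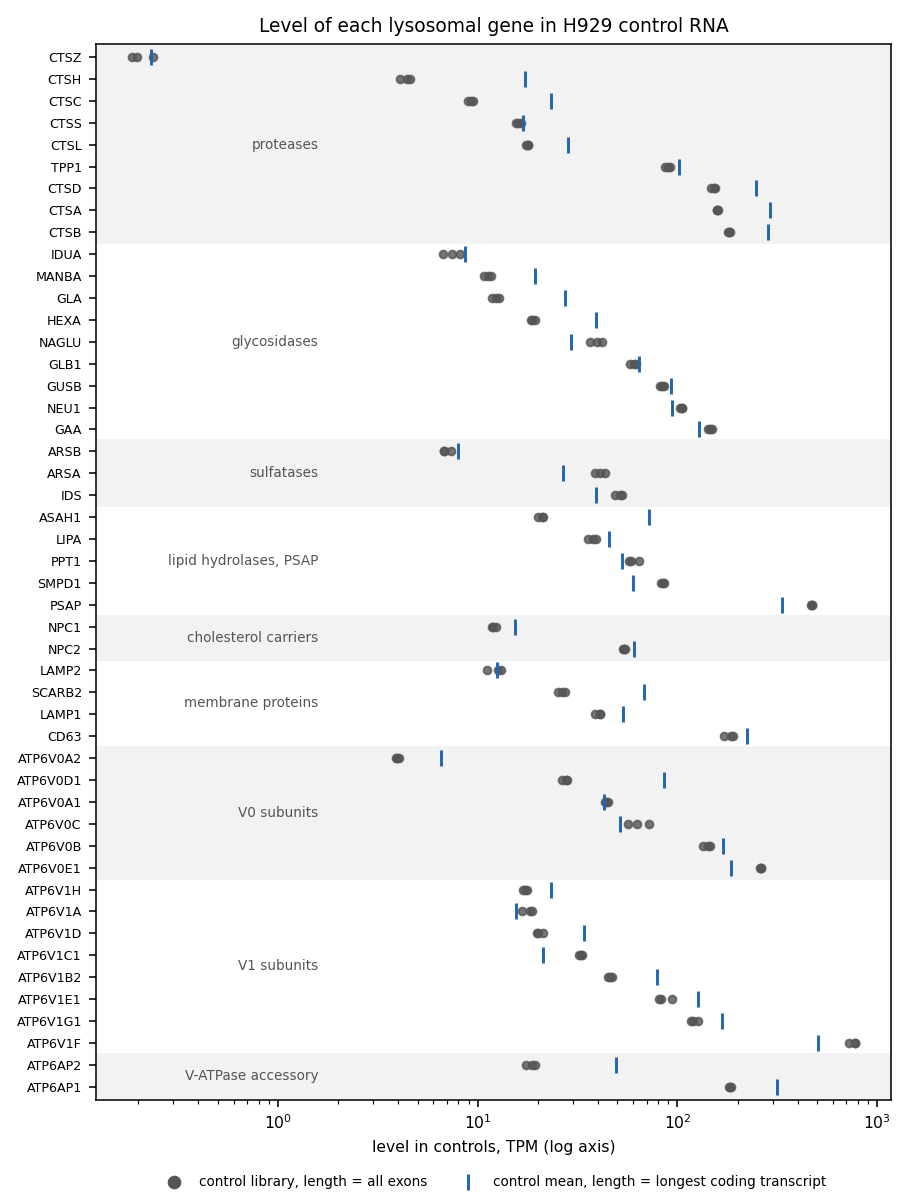
Level of each of the 48 lysosomal genes in control RNA, in TPM on a log axis, grouped by role. Each dot is 1 of 3 control libraries with all exons as the length, and each blue bar is the control mean with the longest coding transcript as the length. ATP6V1F (756) and PSAP (469) lie at the upper end and CTSZ (0.206) far below the rest.

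Many lysosomal genes are controlled by TFEB and its relatives, which bind a CACGTG core in their promoters. RefSeq promoter windows (GRCh38.p14, 250 bases before to 50 after the start site) were found for 34 of the 48 genes. The core CACGTG, which reads the same on both strands, was in 9 of these 34 (26.5%), against 7.43% of all 27305 promoters of this length. TCACGTGA, a longer palindrome that contains the core, was in 5 (14.7%, against 1.04%), namely ATP6V0D1, ATP6V1G1, CTSA, GAA and LAMP1. This look was added after the counts were seen, and the 27305 promoters were not limited to expressed or protein-coding genes as the 48 were. The genes with the core were ATP6V0B, ATP6V0D1, ATP6V1G1, CD63, CTSA, CTSD, GAA, LAMP1 and NEU1. The matches of GAA and ATP6V1G1 show the longer palindrome and that of CTSD the core alone, with CACGTG in capitals:
GAA, 76 bases before the start site, window chr17:80101331-80101630, plus strand: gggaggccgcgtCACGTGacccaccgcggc
GAA, 31 bases before the start site, same window: gctcccgccggtCACGTGacccgcctctgc
ATP6V1G1, 58 bases before the start site, window chr9:114587519-114587818, plus strand: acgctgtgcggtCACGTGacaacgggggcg
CTSD, 47 bases before the start site, window chr11:1763878-1764177, minus strand: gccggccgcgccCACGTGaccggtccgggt

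In the IRE1-treated RNA, 2 of the 48 genes were lower and 12 were higher with an adjusted p-value under 0.05 (edgeR's quasi-likelihood test, with adjustment over the 14398 genes tested). Among all genes tested, 12.4% were lower and 10.3% higher, 22.7% in either direction. Expressed as shares, 4.17% of the lysosomal genes were lower and 25% higher. The lower genes were ATP6V1A and TPP1. The higher genes were CTSZ, CTSL, CTSH, ATP6V0E1, CD63, NPC2, ATP6V1F, ATP6V0B, ATP6V1E1, CTSD, NEU1 and HEXA. The changes were small: apart from CTSZ, the lysosomal genes moved by at most 0.31 on the log2 scale, whereas BLOC1S1 moved by -1.37. The median log2 fold change over the 48 genes was 0.05, beside 0.0045 over all genes tested. At an unadjusted p under 0.05, edgeR gave 3 lower genes, ASAH1 being the third, and 15 higher genes, with CTSA, GUSB and ATP6V1G1 besides the 12. Groups did not overlap for 4 lower and 17 higher lysosomal genes, and for 20% and 19.1% of all genes tested.

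Lower and higher here are relative to the other genes of a library and are not amounts of RNA. The split between them depended on the scaling. TMM scaling takes most genes as unchanged. Its factor lay between 1.02 and 1.03 for control libraries, and for IRE1-treated replicates 1, 2 and 3 it came to 0.947, 0.980 and 0.996. With library size alone, 6 lysosomal genes were lower (IDS, ASAH1, ATP6V1A, SCARB2, ATP6V1C1 and TPP1) and 4 higher (CTSZ, ATP6V0E1, CTSL and CD63), and their median log2 fold change was -0.02. Counts over all genes moved too, to 2596 lower and 683 higher from 1781 and 1489, with a median of -0.07. Without IRE1-treated replicate 1, TMM scaling gave 1 lower and 10 higher lysosomal genes, beside 1665 and 1434 over all genes tested. The genes past the threshold in the same direction under both scalings were ATP6V1A, TPP1, CTSZ, ATP6V0E1, CTSL and CD63.

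**Figure D2:**
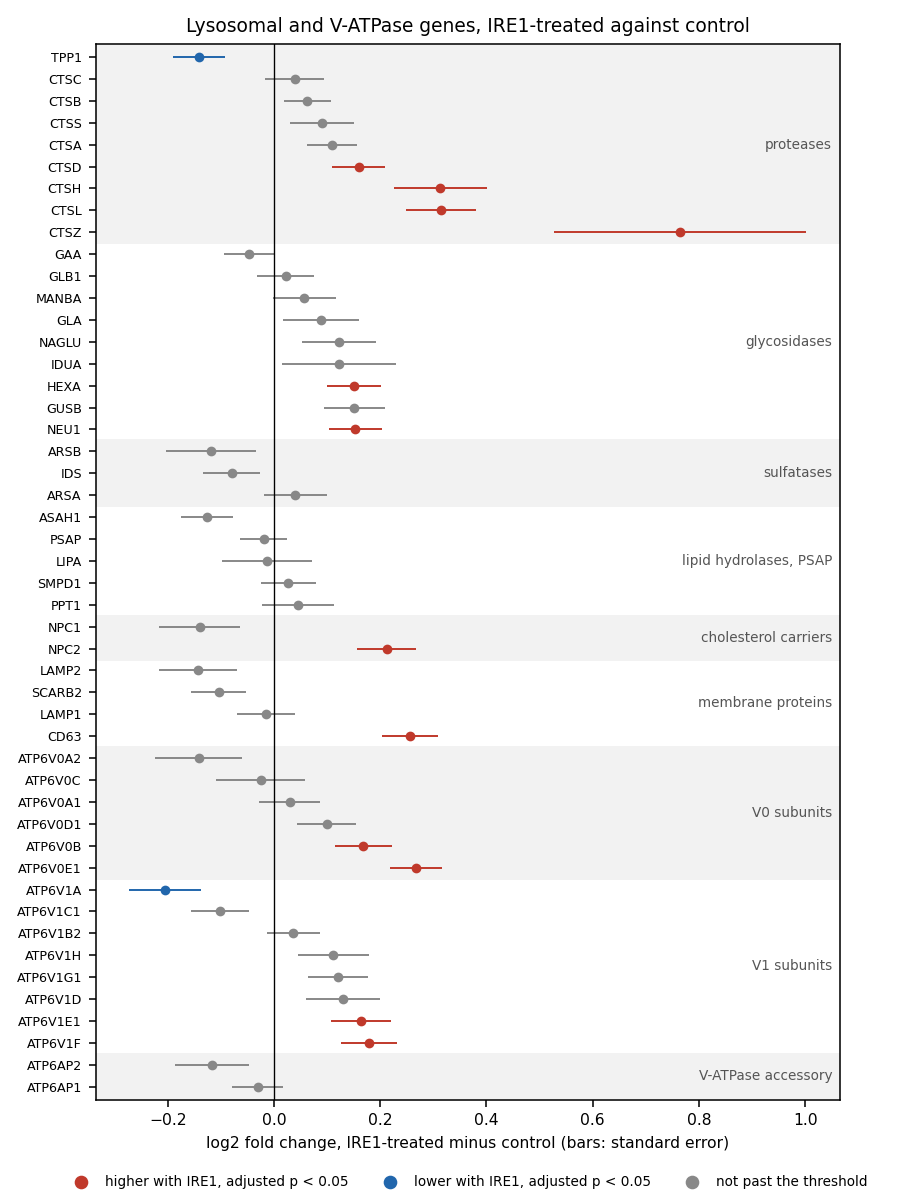
Log2 fold change (IRE1-treated minus control) of each lysosomal gene from edgeR, with bars of 1 standard error, grouped by role. Red and blue mark the 12 higher and 2 lower genes with an adjusted p-value under 0.05, and grey the other 34. CTSZ, at 0.76, has the widest error.

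Among the 9 proteases, 1 was lower, 4 were higher and 4 did not pass. TPP1, a tripeptidyl peptidase whose loss causes a childhood neuronal ceroid lipofuscinosis, was the lower one (ENSG00000166340, chromosome 11, 6633999 to 6640679, minus strand, GRCh37). It had 3844, 3919 and 3783 normalized counts in the controls and 3638, 3302 and 3527 in the IRE1-treated libraries. All treated values lay below all controls, at 90.7% of their mean. The result was a log2 fold change of -0.14 (SE 0.0492, adjusted p = 0.0489, edgeR), close to the threshold. The call was lost without control replicate 1, 2 or 3 or IRE1-treated replicate 2. With library size alone the value was -0.22, and with the length and GC trend removed it was -0.13 and not past the threshold. TPP1 also shares exons with an unnamed gene on each strand.

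CTSL, a potent cysteine endopeptidase, had 718, 706 and 729 normalized counts in the controls and 967, 852 and 862 in the IRE1-treated libraries. The groups were apart by more than the spread within either, with a treated mean at 125% of that in the controls. It had a log2 fold change of 0.31 (SE 0.0655, adjusted p = 0.00322, edgeR), and it passed the threshold in all 15 alternatives, with adjusted p-values from 0.000455 to 0.0255. No other lysosomal gene of the 14 did. Since 8 pseudogenes carry its name, its count depends on how reads with several alignments were treated.

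CTSH had 403, 413 and 377 normalized counts in the controls and 539, 514 and 435 in the IRE1-treated libraries. The lowest treated value still exceeded the highest control. The result was a log2 fold change of 0.31 (SE 0.088, adjusted p = 0.0183, edgeR), and the call was lost without control replicate 1 or 3 or IRE1-treated replicate 2, with library size alone (0.24) and with the length and GC trend removed (0.22).

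CTSD had 5531, 5722 and 5918 normalized counts in the controls and 6618, 6544 and 6017 in the IRE1-treated libraries. The treated values were all higher, by 12% on average, as 6393 ± 328 against 5723 ± 194 (SD, n = 3). The result was a log2 fold change of 0.16 (SE 0.0503, adjusted p = 0.0324, edgeR), and the call was lost without control replicate 1, 2 or 3 or IRE1-treated replicate 2. With library size alone or with the length and GC trend removed it was at 0.08 and did not pass. CTSD shares exons with genes on both strands.

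CTSZ showed the largest change on the fewest reads, with 23.7, 25.1 and 30.9 normalized counts in the controls and 51.6, 34.9 and 48.6 in the IRE1-treated libraries. The groups did not overlap, but the treated libraries spread widely. This gave a log2 fold change of 0.76 (SE 0.237, adjusted p = 0.0301, edgeR). It lost its call without control replicate 1 or 2 or IRE1-treated replicate 1 or 3, and it shares exons with NELFCD on the opposite strand. The other 4 proteases (CTSA, CTSB, CTSC and CTSS) had log2 fold changes above 0 that did not pass.

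Among the 9 glycosidases, which remove sugars from glycoproteins and glycolipids, none was lower (also at an unadjusted p under 0.05, in edgeR, DESeq2 and limma) and 2 were higher. In edgeR with library size alone, 1 was lower at an unadjusted p under 0.05. NEU1, the sialidase that opens the breakdown of sialylated glycans, had 3287, 3336 and 3419.8 normalized counts in the controls and 3781, 3891 and 3498 in the IRE1-treated libraries (log2 fold change 0.15, SE 0.0506, adjusted p = 0.0393, edgeR). HEXA, the hexosaminidase subunit lost in Tay-Sachs disease, had 1954, 2018 and 1959 in the controls and 2307, 2178 and 2103 after treatment (0.15, SE 0.0511, adjusted p = 0.0437, edgeR). In both, every treated library was above every control. NEU1 lost its call without control replicate 1, 2 or 3 or IRE1-treated replicate 2, and HEXA also without IRE1-treated replicate 1. With library size alone NEU1 was at 0.08 and HEXA at 0.07, neither past the threshold, while with the length and GC trend removed they were at 0.14 and 0.23 and passed.

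GUSB, the β-glucuronidase, was the gene nearest the threshold on the outer side, just as ATP6V1E1 was on the inner side. It had 2096, 2154 and 2237 normalized counts in the controls and 2611, 2289 and 2308 after treatment. Its log2 fold change of 0.15 was like that of HEXA and NEU1, with an adjusted p of 0.0678 (edgeR). Over the alternatives this p ran from 0.0209, without IRE1-treated replicate 3, to 0.555, and 18 pseudogenes carry its name. Of the remaining glycosidases (GAA, GLA, GLB1, IDUA, MANBA and NAGLU), none passed. Of the 9 together, 8 (88.9%) had a fold change above 0, beside 50.8% of all genes tested. With library size alone, 6 of the 9 did, and with the length and GC trend removed also 6.

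None of the 3 sulfatases (IDS, ARSA and ARSB, which desulfate glycosaminoglycans and sulfatide) passed the threshold, nor did any of PSAP, ASAH1, SMPD1, LIPA and PPT1. By edgeR, DESeq2 and limma alike, ASAH1 was the 1 gene of these 8 at an unadjusted p under 0.05. In edgeR with library size alone, IDS was lower past the threshold. PSAP, with 9642, 9562 and 9845 normalized counts in the controls and 9287, 9705 and 9672 after treatment, overlapped between the groups (log2 fold change -0.02, SE 0.0442, adjusted p = 0.803, edgeR). As one of the most abundant lysosomal transcripts it therefore gave one of the tightest estimates. ASAH1, the acid ceramidase, was at 2159, 2134 and 2066 in the controls and 1893, 1965 and 1969 after treatment. These did not overlap, but the log2 fold change of -0.13 had an adjusted p of 0.0726 (edgeR). It passed with library size alone (0.0119) and with the trend of length and GC content removed (0.0467), and over all alternatives the adjusted p ran from 0.0119 to 0.234.

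The cholesterol carriers NPC1, a membrane protein, and NPC2, the soluble protein that hands cholesterol to it, are both lost in Niemann-Pick type C disease. NPC2 was higher, with 904, 928 and 939 normalized counts in the controls and 1089, 1037 and 1082 after treatment. Neither group spread over the gap between them. This gave a log2 fold change of 0.21 (SE 0.0562, adjusted p = 0.0135, edgeR), with the call lost without control replicate 1 or 2. It was also lost with library size alone (0.14) and with the length and GC trend removed (0.07). NPC2 shares exons with ISCA2 on the opposite strand and with MIR4709. NPC1 did not pass the threshold.

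Of the membrane proteins, CD63 was higher, while LAMP1, LAMP2, which line the lysosomal membrane, and SCARB2, the receptor that carries glucocerebrosidase, did not pass. CD63 had 2970.0, 2726 and 3081 normalized counts in the controls and 3481, 3569 and 3429.5 after treatment, so the groups were apart. This gave a log2 fold change of 0.26 (SE 0.0523, adjusted p = 0.00291, edgeR), and leaving out any one library kept the call. It was lost with the length and GC trend removed (0.09, adjusted p = 0.243, against 0.000128 to 0.312 over all alternatives). An antisense gene, CD63-AS1, shares its exons.

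**Figure D3:**
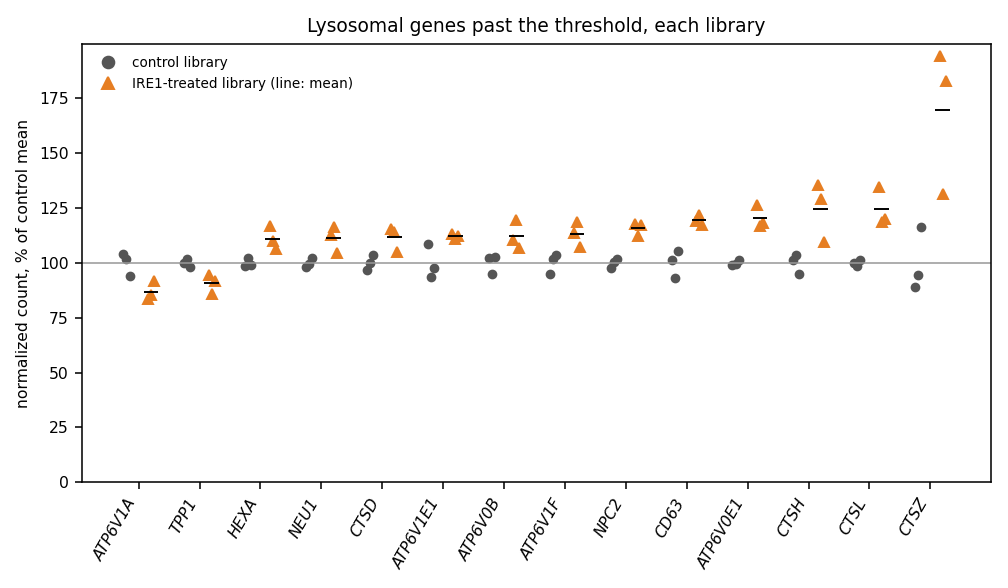
Normalized count of the 14 lysosomal genes past the threshold in each library, as a percentage of the control mean of the gene. Grey dots are the 3 control libraries, orange triangles the 3 IRE1-treated libraries and black lines the treated means. In each gene all treated libraries lie on one side of all controls, and CTSZ, with 23.7 to 51.6 normalized counts, spreads most.

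The V-ATPase consists of a membrane part, V0, through which protons pass, and a cytosolic part, V1, that hydrolyses ATP. Of its 16 genes, 1 was lower, 4 were higher and 11 did not pass. In V0, ATP6V0E1 had 2744, 2761 and 2818 normalized counts in the controls and 3502, 3242 and 3274 after treatment. This was the smallest adjusted p among the 48 genes (log2 fold change 0.27, SE 0.0484, adjusted p = 0.00138, edgeR). Leaving out any one library kept the call, but not with the length and GC trend removed (0.12, adjusted p = 0.0674, against 5.89e-05 to 0.132 over all alternatives). Pseudogenes named after it number 4.

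ATP6V0B had 3091, 2874 and 3097 in the controls and 3340.3, 3609 and 3230.4 after treatment (log2 fold change 0.17, SE 0.0536, adjusted p = 0.0341, edgeR). The treated libraries were higher throughout, but the call was lost without control replicate 1, 2 or 3 or IRE1-treated replicate 2. It was at 0.09 with library size alone and 0.035 with the length and GC trend removed, past the threshold in neither. ATP6V0A2, the lowest subunit, had 448, 443 and 468 in the controls and 382, 397 and 449.7 after treatment, which overlap (-0.14, SE 0.0818, adjusted p = 0.235, edgeR). ATP6V0A1, its abundant counterpart in this RNA, had 0.03 (SE 0.0575, adjusted p = 0.765, edgeR), and ATP6V0C and ATP6V0D1 did not pass either.

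In V1, ATP6V1A, the catalytic subunit that binds ATP, was the lowest of all 48 genes (ENSG00000114573, chromosome 3, 113465617 to 113530903, plus strand, GRCh37). It had 779, 763 and 706 normalized counts in the controls and 625, 638 and 687 in the IRE1-treated libraries. The treated libraries were at 86.7% of the control mean, and the gap between the groups was narrow. This gave a log2 fold change of -0.20 (SE 0.0677, adjusted p = 0.0396, edgeR). The call was lost without control replicate 1 or 2 or IRE1-treated replicate 1 or 2. It was also lost with the length and GC trend removed (-0.09, adjusted p = 0.361, against 0.0138 to 0.469 over all alternatives).

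Other V1 subunits went the other way. ATP6V1F had 3621, 3886 and 3948 normalized counts in the controls and 4347, 4528 and 4093 after treatment, with no overlap (log2 fold change 0.18, SE 0.0525, adjusted p = 0.0225, edgeR). ATP6V1E1, a stalk subunit, had 1943, 1677 and 1750.0 in the controls and 2023, 1986 and 2010.5 after treatment (0.16, SE 0.057, adjusted p = 0.0499, edgeR). The highest control of ATP6V1E1 was close to the treated values, and it was the gene nearest the threshold on the inner side. Removing the length and GC trend took ATP6V1F to -0.018 and ATP6V1E1 to 0.0084, and library size alone took them to 0.10 and 0.09, with no call in any of these. The call of ATP6V1F was also lost without control replicate 1 or 2 or IRE1-treated replicate 2, and that of ATP6V1E1 without control replicate 2 or 3 or IRE1-treated replicate 2. ATP6V1B2, which pairs with ATP6V1A in the catalytic head, and ATP6V1C1, ATP6V1D, ATP6V1G1 and ATP6V1H did not pass, nor did the accessory genes ATP6AP1 and ATP6AP2. Different subunits of the same pump were thus called in opposite directions, with transcript lengths of 4575 bases for ATP6V1A and 711 bases for ATP6V1F.

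Fold changes varied with transcript length. Over 12225 tested protein-coding genes, the log2 fold change had a Spearman correlation of -0.627 with the length of the longest coding transcript, and over the 48 lysosomal genes one of -0.526, both across genes, which are not independent replicates. The lysosomal transcripts were shorter, with a median of 2614 bases against 3579. Of the 6 lysosomal genes under 1500 bases (ATP6V1F, ATP6V0C, CD63, ATP6V1E1, ATP6V0E1 and NPC2), 5 were higher. Their median log2 fold change was 0.20, beside 0.22 for the 1280 coding genes of that length, of which 45.1% were higher. Of the 16 from 1500 to under 2500 bases, 4 were higher, at a median of 0.12, beside 0.11 and 19.3% for the coding genes.

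The 10 from 2500 to under 4000 bases included 1 lower gene (TPP1) and 1 higher gene (NEU1), at a median of -0.014, beside 0.010 for the coding genes, of which 4.13% were lower and 6.54% higher. The 10 from 4000 to under 6000 bases included 1 lower gene (ATP6V1A) and 1 higher gene (HEXA), at a median of -0.03, beside -0.10, 20.2% lower and 2.94% higher for the 2788 coding genes of that length. With TMM scaling, the 6 of 6000 bases or more included no lower gene (edgeR, also at an unadjusted p under 0.05). They included 1 higher gene, CTSZ. Their median was -0.02, beside -0.22 and 40.2% lower for 2490 coding genes. With library size alone, IDS, at 7580 bases, was lower past the threshold. Whether these few genes differ from others of their length was not tested. Removing the trend of each library with length and GC content left 1 lower gene (ASAH1) and 6 higher genes (ATP6V0A1, CTSZ, CTSC, CTSL, NEU1 and HEXA). Of these 7, 4 were among the 14 genes called with TMM scaling alone. Over all 14111 genes tested with the trend removed, 633 were lower and 972 higher. CTSC, which activates other proteases, and ATP6V0A1 entered the higher genes there (0.24 each, adjusted p = 0.00886 and 0.0208, edgeR, with upper ends over all alternatives of 0.974 and 0.922). The lengths used for them were 6144 and 8310 bases, and for CTSZ 10849 bases. These are lengths of the longest annotated coding transcript. Whether these transcripts were the ones present in this RNA was not tested.

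**Figure D4:**
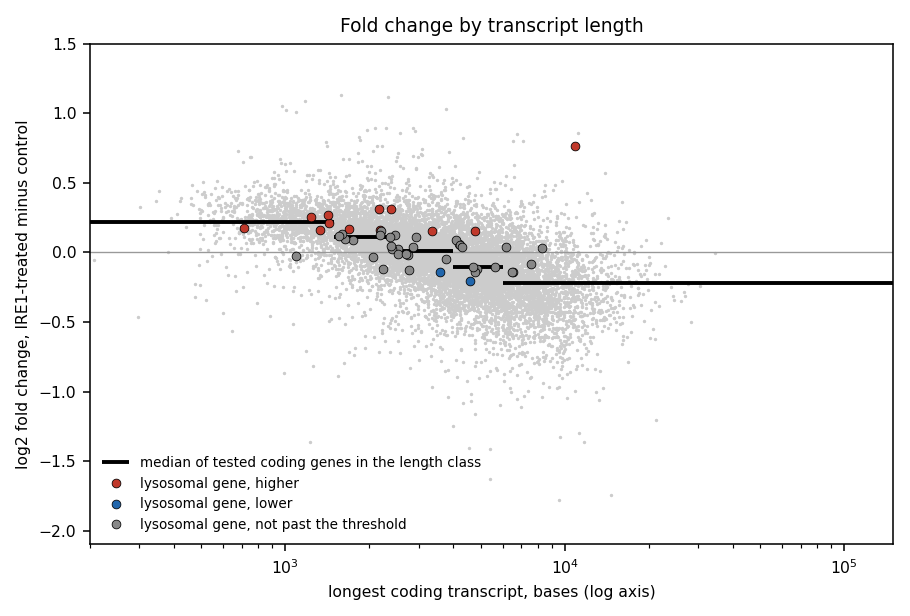
Log2 fold change (IRE1-treated minus control) against the length of the longest coding transcript, on a log axis, for 12225 tested protein-coding genes (light grey) and the 48 lysosomal genes (coloured as lower, higher or not past the threshold). Black lines are the medians of coding genes in 5 length classes, falling from 0.22 to -0.22. The lysosomal genes follow the lines below 4000 bases, and CTSZ lies far above them.

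**Figure D5:**
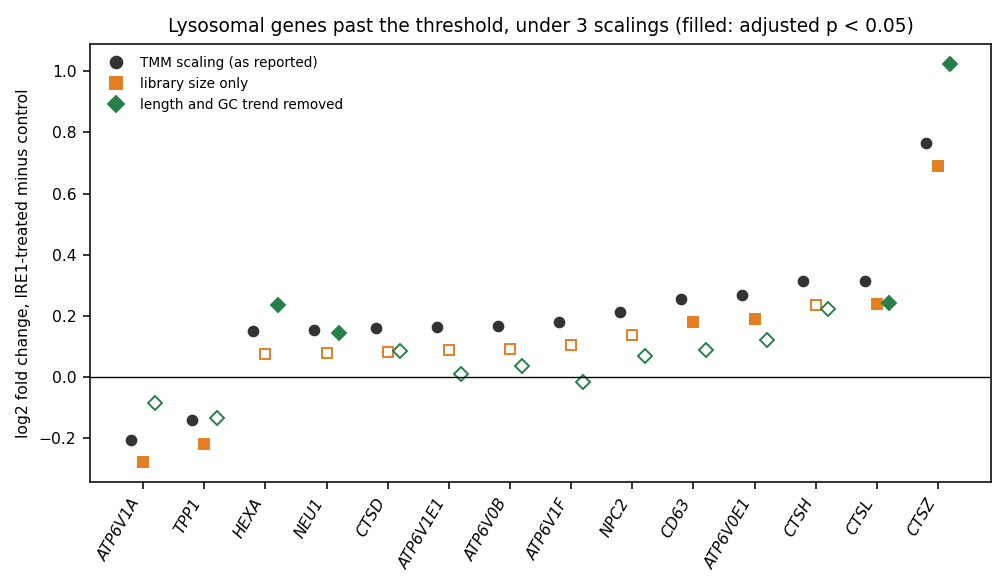
Log2 fold change of the 14 lysosomal genes past the threshold under TMM scaling (black), library size alone (orange) and with the trend of length and GC content removed (green). Filled symbols have an adjusted p-value under 0.05. CTSL and CTSZ are filled in each, and ATP6V1F and ATP6V1E1 fall to -0.02 and 0.01 with the trend removed.

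IRE1 cuts at the sequence CUGCAG within the loop of a hairpin. This sequence was looked for in the longest coding transcript of each gene on the sense strand, and folded with 15 bases on either side. A site was counted where the G of CUG lay in a predicted loop of 5 to 11 bases. Other bases of CUGCAG could then be paired. Such a site was found in 18 of the 48 lysosomal genes (37.5%), beside 36.9% of 12207 coding genes. CUGCAG anywhere in the transcript was found in 87.5%, beside 86.7%. None of the 48 had this G in a loop of exactly 7 bases (95% interval across genes 0 to 7.41%), beside 7.5% of coding genes. Hairpin sites were present in 1 of the 2 lower and 6 of the 12 higher genes. The shares of the lysosomal genes with a hairpin site and with CUGCAG anywhere were thus near those of all coding genes. Whether they differ for the 7-base loop was not tested. A selection of the sites in ATP6V1A and TPP1 is shown, because these were the lysosomal genes lower past the threshold with TMM scaling, with CTGCAG in capitals in DNA letters:
ATP6V1A, exon 9, coding, chr3:113513836-113513841, plus strand, no hairpin: tagctgaaatgcCTGCAGatagtggatatc
ATP6V1A, exon 12, coding, chr3:113517246-113517251, plus strand, loop of 9 bases: gctaaggaaattCTGCAGgaagaagaagac
ATP6V1A, exon 15, 3′ UTR, chr3:113528965-113528970, plus strand, loop of 6 bases: gatcttggctcaCTGCAGccttcgcctccc
TPP1, exon 12, 3′ UTR, chr11:6635666-6635671, minus strand, no hairpin: aactattgactgCTGCAGacagcttatctc
Positions are in GRCh37. A match or a fold is a property of the sequence, and no cut was measured at these places in the gene counts.

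The remaining genes of the pathway were taken as 85 further lysosomal genes in 5 lists, of which 78 passed the filter. Of these 78, 6 were lower and 8 higher, at a median log2 fold change of 0.02. These are 7.69% and 10.3%, beside the 12.4% and 10.3% of all genes tested. CTSW, ACP5, CD68, ATP6V0A4, ATP6V0D2, ATP6V1B1 and ATP6V1G3 did not pass the filter.

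Of 31 other hydrolases and cofactors, 2 were lower, PLBD2 among them, and 4 higher (GM2A, CTSF, DPP7 and DNASE2). PLBD2, a phospholipase B-like protein of the lysosome, fell furthest, with 731, 707 and 731 normalized counts in the controls and 401, 421 and 511 after treatment. The treated mean was 61.4% of the control mean (log2 fold change -0.70, SE 0.0838, adjusted p = 9.17e-05, edgeR), and the gene was lower past the threshold in all 15 alternatives. This was larger in size than the change of any of the 48 genes but CTSZ. Of the genes past the threshold, CTSF, a cysteine protease, was the highest, with 1034, 1054 and 1064 in the controls and 1259.8, 1251 and 1233 after treatment (0.25, SE 0.0529, adjusted p = 0.00383, edgeR).

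The 9 genes that tag and sort hydrolases by mannose 6-phosphate held 2 lower genes and none higher (edgeR, with 3 and 0 at an unadjusted p under 0.05). GNPTAB, which encodes the enzyme that starts the tag, had 796, 763 and 732 normalized counts in the controls and 578, 602 and 628 after treatment (log2 fold change -0.34, SE 0.0661, adjusted p = 0.00218, edgeR). IGF2R, the large mannose 6-phosphate receptor, had 6195, 5836 and 5670.1 in the controls and 4707, 4913 and 5186 after treatment (-0.26, SE 0.0515, adjusted p = 0.00259, edgeR). Neither overlapped between the groups, and both calls held with each library left out. With the length and GC trend removed, IGF2R was at 0.03 (adjusted p = 0.727, against 4.85e-06 to 0.785 over all alternatives) and GNPTAB remained lower at -0.18 (adjusted p = 0.0474, against 8.12e-05 to 0.092).

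Of 21 other membrane proteins and transporters, only TMEM175, a lysosomal potassium and proton channel, passed, with 1066, 1074 and 1120.0 normalized counts in the controls and 890.3, 990.2 and 948 after treatment (log2 fold change -0.20, SE 0.0595, adjusted p = 0.0223, edgeR). The call was lost without control replicate 1, 2 or 3. Of 5 further V-ATPase isoforms, ATP6V0E2, the alternative form of ATP6V0E1, was higher (0.16, SE 0.0538, adjusted p = 0.0417, edgeR), with 2317, 2506 and 2561 in the controls and 2877, 2743 and 2634 after treatment. It was at 0.08 with library size alone and 0.12 with the length and GC trend removed, without a call. It kept its call in 6 of 15 alternatives, and only without IRE1-treated replicate 3 when a library was left out.

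The 12 transcription factors and genes of the Ragulator and Rag complexes, which dock the growth kinase mTORC1 on the lysosome, held 1 lower and 3 higher genes. MITF, a relative of TFEB, was lower on few reads, with 93, 99.3 and 97.8 normalized counts in the controls and 61.2, 63.4 and 78.7 after treatment (log2 fold change -0.50, SE 0.152, adjusted p = 0.0262, edgeR), and its call held only without IRE1-treated replicate 3 among the libraries left out. The higher genes were the Ragulator subunits LAMTOR2, LAMTOR4 and LAMTOR5. LAMTOR2 was the highest, with 1414, 1399 and 1538 in the controls and 2266, 1922 and 1729.8 after treatment (0.44, SE 0.0781, adjusted p = 0.00118, edgeR), and was higher past the threshold in all 15 alternatives, at 0.25 with the length and GC trend removed.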

How the data were processed

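RNA-seq of 6 libraries (3 control, 3 IRE1-treated) was analysed. The authors used Cutadapt 1.12 for trimming and STAR 2.5.3a for alignment to GRCh37 (Ensembl release 87), and deposited raw HTSeq 0.6.1p1 counts per gene. Strand and overlap settings are not given in the sources used here. The authors also deposited a CPM table (edgeR 3.24.3), used only in an alternative.

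The 5 HTSeq summary lines (21.4 to 23.2% of counts) were left out. The 14398 of 24945 genes with a count that passed filterByExpr in edgeR 4.0.16 (R 4.3.3) were TMM-scaled and compared by the quasi-likelihood test without covariates (Benjamini-Hochberg, threshold 0.05). Adjusted p-values in the text are from this test. A normalized count is the count over library size and TMM factor, at the mean library's scale. The labels name the samples as replicates but not as separate cultures, so p-values cover the spread between these samples, which may be technical. An exact permutation test of 3 against 3 could not go below 0.1 and was not used. No pair of libraries was a copy (chi-square per gene of 2.20 to 29.3).

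The alternatives were library size, upper quartile scaling, other filters, DESeq2 1.42.0, limma 3.58.1 on log2(CPM + 1), a replicate block, removal of a loess trend (span 0.5) with length and GC content, and each library left out. Gene models were GENCODE 44 on GRCh37, promoters RefSeq, and folds ViennaRNA 2.7.2 with at least 3 base pairs. Fits were tested on simulated data. The genes named with values are those past the threshold, those nearest it, the 3 highest and 3 lowest levels and, for each further list, the called genes at its ends; ASAH1, ATP6V0A1, CTSC, the promoter matches and the gene symbols without values were added after values were seen. The genes and lists were chosen with earlier results of these data known. The study's exon test was not repeated. A few values and 1 sequence are not reported here.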

Additional observations from a re-analysis of the deposited data

How the results depend on the processing

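Of the 48 lysosomal genes, 2 lower and 12 higher were found with TMM scaling. They became 6 and 4 with library size alone, 1 lower with upper quartile scaling, 1 and 6 with the length and GC trend removed, and 0 lower with DESeq2 (3 at an unadjusted p under 0.05), which gave CTSZ no adjusted p. With each library left out, the lower genes numbered 0 to 3 and the higher genes 4 to 13: control replicates 1 and 2 each left 0 and 4 when removed, control replicate 3 left 1 and 6, and IRE1-treated replicates 1, 2 and 3 left 1 and 10, 0 and 5, and 3 and 13. At an unadjusted p under 0.05, edgeR gave 3, 1 and 3 lower genes in the fits with 0 lower genes. Leaving out a library also removes a degree of freedom. Over all genes tested, lower and higher genes numbered 972 and 709, 992 and 638, and 1360 and 947 without control replicates 1, 2 and 3. Without IRE1-treated replicates 1, 2 and 3 they numbered 1665 and 1434, 1089 and 893, and 2221 and 2091. Over all genes, upper quartile scaling gave 1735 and 1537, DESeq2 1549 and 1363, and removal of the trend 633 and 972. Same-numbered samples did not deviate together (correlations -0.04, -0.01 and -0.11). This cannot show whether the numbers pair them, because the treated libraries differed more among themselves than the controls did. Their chi-square per gene was 3.40 to 11.1, against 2.20 to 3.05. The replicate block gave 0 lower (edgeR, 2 at an unadjusted p under 0.05) and 7 higher genes, and 1 and 5 when the trend was removed as well. Over all genes tested, the block gave 1496 lower and 1117 higher, and 521 and 836 when the trend was removed as well.

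Of the further lysosomal genes, 6 lower and 8 higher became 13 and 4 with library size alone and 3 and 4 with the replicate block and the trend removed. They ranged over 3 to 6 lower and 4 to 14 higher with a library left out: 3 and 4 without control replicate 1, 4 higher when control replicate 2 or IRE1-treated replicate 2 was removed, and 14 higher without IRE1-treated replicate 3.

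Of the 48 genes, 12 changed direction with the trend removed, 9 with library size alone, 6 without IRE1-treated replicate 1 and 1 or 2 without any other library. Among the genes named with values, directions turned for ATP6V1F (-0.018 with the trend removed, with or without the block), ATP6V0A2 (0.049, and 0.044 with the block), IGF2R (0.027, with or without the block), ATP6V0A1 (-0.048) and CTSC (-0.036) with library size alone. With a library left out, PSAP ranged from -0.030 to 0.0034, ATP6V0A1 from -0.042 to 0.070 and CTSC from -0.0044 to 0.086. Apart from the trend and library size, the cause of these moves was not tested. The summed level of 4046 became 4463 TPM with the longest coding transcript as the length. The share with a CUGCAG hairpin, 37.5%, became 0% with a 7-base loop, 87.5% for CUGCAG anywhere and 83.3% for a looser consensus. With 26 counts in a library at the lowest, CTSZ has the depth that limits most, and gene counts cannot show where in an mRNA reads were lost.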
